A study of Mus musculus with 16 samples.

Results

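The genes described here are 10 members of the Klotho, vitamin D and calcium handling system: *Kl*, *Klb*, *Vdr*, *Pth1r*, *Casr*, *Calb1*, *Trpv5*, *Trpv6*, *S100g* and *Atp2b1*. They were chosen by name from the physiology of calcium and phosphate, with earlier results of these data known. All 10 were found among the 24984 genes of the count tables. All 10 passed the filter on low counts in the kidney, where 14892 genes did. Only *Klb*, *Pth1r* and *Atp2b1* passed it in the liver, where 13144 genes did.

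Klotho (*Kl*) is a membrane protein of kidney tubules that joins an FGF receptor to form the receptor of FGF23, the bone hormone that lowers phosphate reabsorption and vitamin D activation. In the distal nephron, calcium crosses the cell in steps: entry through the apical channels TRPV5 and TRPV6, buffering by the calbindins (*Calb1*, *S100g*), and exit at the basolateral side through pumps such as PMCA1 (*Atp2b1*) and the sodium-calcium exchanger. Parathyroid hormone, active vitamin D and the calcium-sensing receptor regulate these steps, and mice that lack Klotho are known for early signs of aging.

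RNA was sequenced from kidney and liver of wild-type C57BL/6 mice labelled as 24 months old. All mice had received a vector that makes a short hairpin RNA: shFOS, directed against *Fos*, a subunit of the transcription factor AP-1, or shNT, a non-targeting control. The study's methods describe female mice, AAV8 given into a vein at that age, and collection months later. AAV8 is a viral vector, and no promoter or cell type that would confine the hairpin is given in the sources used here. Each tissue and treatment has 4 libraries, 16 in all, and the sources do not say whether each came from a separate mouse, so p-values measure the spread between these libraries.

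Libraries held 14194543 to 15534665 counted reads in the kidney and 16652150 to 18300277 in the liver. Levels are given as CPM, the reads of a gene per 1000000 reads of a library whose size was scaled by TMM. For a gene with no read the upper limit is 3 reads, which is 0.193 to 0.211 CPM in the kidney and 0.164 to 0.18 CPM in the liver, for counting error only. *Fos* was 5.37 ± 1.02 CPM (SD, n = 4) in shNT kidneys and 3.23 ± 0.929 CPM in shFOS kidneys, with no overlap (log2 fold change -0.73, edgeR adjusted p = 0.0955). In the liver it was 2.51 ± 1.08 CPM and 1.82 ± 0.637 CPM (edgeR adjusted p = 0.778). Some libraries stood apart. Kidney shNT replicate 4 had the lowest sum of 8 proximal tubule markers, 5078 CPM against 8662 to 10350 CPM in the other shNT kidneys. Its markers did not all lie low: *Slc5a12* was 406 CPM there, against 236 to 279 CPM in the other shNT kidneys. Kidney shFOS replicate 2 held 37.5 CPM of adrenal cortex markers and 235 CPM of adipocyte markers, against at most 10.5 and 66.6 CPM in the other kidneys. Liver shNT replicate 4 held 43370 CPM of hepatocyte markers against 110600 to 186700 CPM in the other livers. Most of that sum is *Alb*, 27340 CPM there and 104100 to 170000 CPM in the other shNT livers. Not all of these markers lay low: *Apoa1* was 8895 CPM there, against 3861 to 7219 CPM in the other shNT livers. *Hnf4a* was 797.6 CPM, against 474.4 to 756.7 CPM.

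Where the members are expressed was described first, in shNT mice. Compared per kilobase of exon, a scale on which levels of different genes can be set side by side, kidney levels spanned from 1120 ± 436 CPM per kilobase (SD, n = 4) for *S100g*, the gene of calbindin-D9k, to 0.201 ± 0.0864 for *Klb*, the co-receptor of FGF21 and of the bile acid hormone FGF15. Next to *S100g* stood the parathyroid hormone receptor *Pth1r* at 153 ± 41.3 and *Calb1*, the gene of calbindin-D28k, at 114 ± 18.5, which overlapped each other. The vitamin D receptor *Vdr* (57.1 ± 1.61), *Kl* (48.0 ± 10.6) and the calcium-sensing receptor *Casr* (27.4 ± 4.45) followed, and each overlapped its neighbour. The pump *Atp2b1* (6.28 ± 0.884) overlapped the channel *Trpv5* (6.18 ± 1.5), and *Trpv6* was lower at 1.43 ± 0.294. With the length of the longest transcript in place of all exons, *Kl* (76.8) stood above *Vdr* (73.8), and *Atp2b1* (13.4) no longer overlapped *Trpv5*.

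In shNT livers, *Klb* had the highest level of the 10, 5.31 ± 1.18 CPM per kilobase (SD, n = 4). *Pth1r* (3.25 ± 0.587) and *Atp2b1* (2.91 ± 0.376) overlapped each other, and their order turned with the longest transcript length (4.12 and 6.20). On that length *Klb* (6.82) still had the highest mean but overlapped *Atp2b1*. The other 7 members were close to the counting floor. *Casr*, *Calb1* and *Trpv5* had 0 reads in every shNT liver, *Kl* had 0 to 2, *Trpv6* 0 to 4 and *S100g* 1 to 5. *Vdr* had 0 to 10 reads in 3 shNT livers and 35 in replicate 4, the library with the lowest summed hepatocyte markers.

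**Figure D1:**
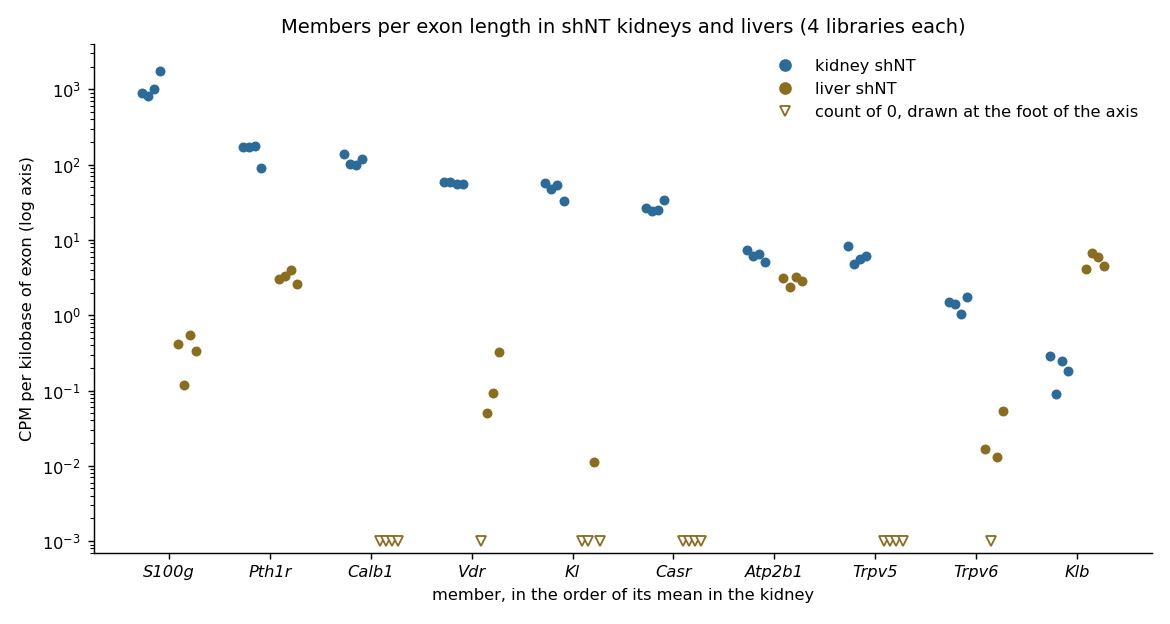
Level of each member in shNT kidneys (blue) and shNT livers (brown), in CPM per kilobase of exon on a log axis, 1 point per library (4 per tissue), members ordered by their kidney mean; open triangles at the foot of the axis are libraries with a count of 0. The kidney levels run from 1120 for *S100g* to 0.201 for *Klb*, and *Klb* is the member whose liver points lie above its kidney points.

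Of the 10 members, 8 were higher in shNT kidney than in shNT liver and 1, *Klb*, was higher in liver (edgeR's quasi-likelihood test, adjusted p under 0.05). Over all 14875 genes tested, 32.3% were called higher in kidney and 27.7% higher in liver, 60.0% in all. On the scale shared by both tissues, *Kl* was 323 ± 71.8 CPM (SD, n = 4) in kidney, 27237 reads in all, and 0.0376 ± 0.0752 CPM in liver, 2 reads in all. The ratio was 7976, with a 95% Poisson interval of 2208 to 65860 that covers counting error only (edgeR adjusted p = 1.42e-07). *Klb* was 0.660 ± 0.285 CPM in kidney and 34.5 ± 7.96 CPM in liver, a log2 difference of -5.69 (kidney minus liver, SE, the standard error, 0.33). The Klotho co-receptors thus took opposite tissues, each in 4 of 4 libraries.

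The receptors were also kidney genes. *Vdr* was 230-fold higher in kidney (interval 174 to 310, on 50 liver reads). Of these reads, 35 were in liver shNT replicate 4, and without that library the ratio was 562 (interval 341 to 1005). *Pth1r* was 322 ± 87.6 CPM in kidney and 13.6 ± 2.56 CPM in liver, a log2 difference of 4.57 (SE 0.27). *Casr* was at least 381-fold higher in kidney, computed against 3 counts per liver library. The same bound was 1630-fold for *Calb1* and 59.1-fold for *Trpv5*. *S100g* was 1594-fold higher (interval 913 to 3085) and *Trpv6* 33.4-fold higher (interval 15.3 to 91.0), on 12 and 6 liver reads. For *Trpv6*, 4 of the 6 reads were in liver shNT replicate 4, and without that library the ratio was 73.6 (interval 20.4 to 607.5). The one member with no called difference was *Atp2b1*, a pump that most cell types make, at 68.9 ± 9.89 CPM in kidney and 63.0 ± 8.22 CPM in liver (log2 difference 0.13, edgeR adjusted p = 0.453). This last result depends on the scale: with total counts only, which moves the median of all genes from 0.04 to 1.08 on the log2 scale, *Atp2b1* was higher in kidney by 1.16 (adjusted p = 0.000119), close to that shift.

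The treatment was compared next in the kidney. No member reached an adjusted p under 0.05 in edgeR's quasi-likelihood test, nor did any of the 14892 genes (0.0%). At the unadjusted level, 3 members had a p under 0.05, *Kl* and *Atp2b1* with higher and *Trpv6* with lower estimates in shFOS, 30.0% of the members against 31.9% of all genes. DESeq2 called the same 3 members, and 16.9% of all genes. The 4 shNT and 4 shFOS kidneys did not overlap for 2 members, 20%, against 17.2% of all genes (9.16% higher and 8.04% lower in shFOS). By edgeR and by overlap, the members' shares were thus near those of all kidney genes. The median log2 fold change was 0.07 over the members and 0.00 over all genes. Tubule cells in smaller number and less RNA per cell cannot be told apart in such whole-tissue libraries.

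**Figure D2:**
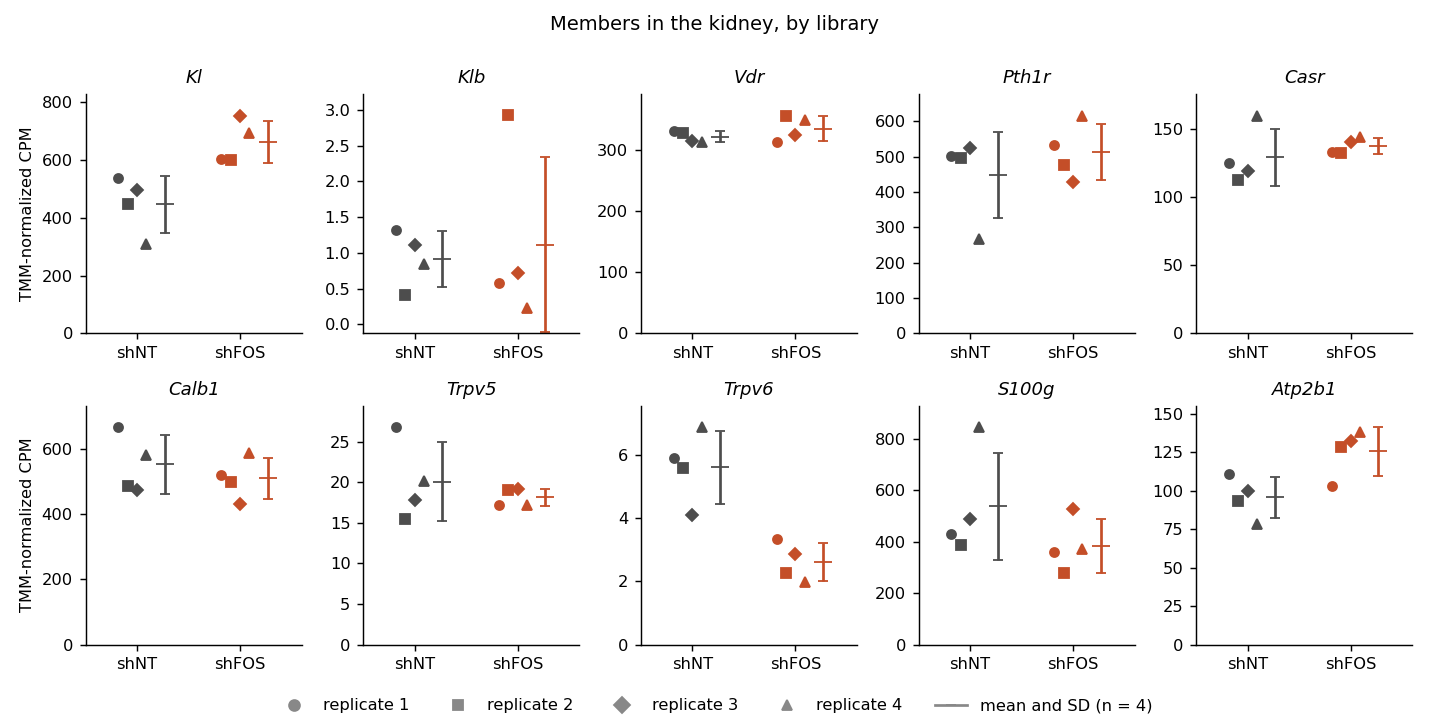
TMM-normalized CPM of each member in the 8 kidney libraries, shNT in grey and shFOS in orange, with a symbol for each replicate and the mean and SD (n = 4) beside the points. *Kl* (310 to 537 against 600 to 753 CPM) and *Trpv6* (4.1 to 6.9 against 2.0 to 3.34 CPM) are the members whose groups do not overlap.

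*Kl* (ENSMUSG00000058488.7) spans 150952607 to 150993817 on chromosome 5 of mm10, + strand. The 250 bases before its start are shown because *Kl* is the gene that defines the system and its groups did not overlap. The sequence is from RefSeq (GRCm38.p6, the assembly of mm10), chr5:150952357-150952606, + strand, written 5′ to 3′.
Kl: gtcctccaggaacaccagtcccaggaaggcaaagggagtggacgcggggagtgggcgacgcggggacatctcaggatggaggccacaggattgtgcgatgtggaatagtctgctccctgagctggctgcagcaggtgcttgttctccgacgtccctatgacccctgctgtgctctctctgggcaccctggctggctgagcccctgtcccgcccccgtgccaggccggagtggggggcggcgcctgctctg

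In a window of 300 bases, the 250 above and the first 50 of the transcript, neither strand held the AP-1 site TGACTCA, the CRE site TGACGTCA, the vitamin D receptor motif DR3 (AGGTCA repeated after 3 bases), its half-site AGGTCA or a TATAAA box. G and C made up 67.3% of that window. No capitals are therefore printed in it.

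*Kl* was 537, 448, 496 and 310 CPM in shNT kidneys 1 to 4 and 604, 600, 753 and 694 CPM in shFOS kidneys 1 to 4. Every shFOS kidney was above every shNT kidney, and the lowest value was that of shNT replicate 4. The means were 448 ± 98.5 and 663 ± 74.0 CPM (SD, n = 4), a ratio of 1.48. Its log2 fold change was 0.57 (SE 0.17, edgeR adjusted p = 0.0764), and the exact two-sided permutation test gave p = 0.0286, the smallest that 70 assignments allow. Over 19 alternative settings the estimate ran from 0.43 (without shNT replicate 4) to 0.67, higher in shFOS in all 19, and it was called in 2: DESeq2 (adjusted p = 0.0160) and edgeR without shFOS replicate 1 (adjusted p = 0.0477).

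*Kl* varied with the proximal tubule markers. The summed level of the 8 markers was 9851, 8662, 10350 and 5078 CPM in shNT kidneys 1 to 4 and 10170, 12460, 13930 and 13960 CPM in shFOS kidneys. *Slc34a1*, *Lrp2* and *Miox* made up most of this sum. The log2 fold changes of the 8 genes ran from 0.19 (*Slc13a3*) to 1.03 (*Slc5a2*). Of those 8 genes, 2 were above every shNT kidney in all shFOS kidneys, as were 9.16% of all kidney genes. Per 1000 CPM of these markers, a ratio chosen after the values were seen, *Kl* was 53.8 ± 5.54 (SD, n = 4) in shNT kidneys, from 47.9 to 61.1, and 52.9 ± 5.04 in shFOS kidneys, from 48.2 to 59.4, so that the groups overlapped throughout. Klotho is also known from the distal convoluted tubule, whose 6 markers summed to 2097 to 3083 CPM in shNT and 1717 to 2485 CPM in shFOS kidneys. Most of this sum came from *Slc12a3* and *Wnk1*. *Slc12a3* was 1442 to 2147 CPM in shNT and 1008 to 1720 CPM in shFOS kidneys. *Wnk1* was 497 to 767 and 591 to 663.5 CPM, and 73.44 to 93.85 CPM in shNT livers. Per 1000 CPM of the 6 markers, *Kl* was 177 ± 34.7 and 349 ± 75.2, with no overlap. Which segment the *Kl* reads came from was not tested.

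**Figure D3:**
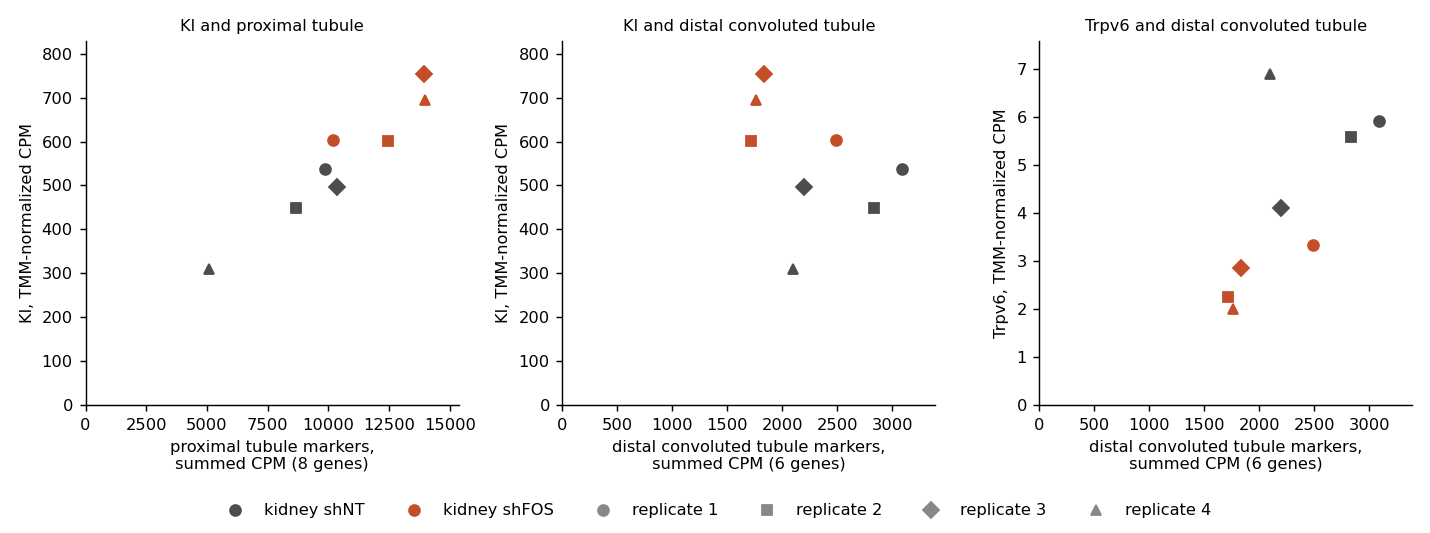
TMM-normalized CPM of *Kl* against the summed CPM of 8 proximal tubule markers (left) and of 6 distal convoluted tubule markers (middle), and of *Trpv6* against the latter (right), 1 point per kidney library, shNT in grey and shFOS in orange. On the left, *Kl* climbs along with the proximal markers from shNT replicate 4 (310 against 5078 CPM) to the shFOS kidneys, while on the right every shFOS kidney lies below every shNT kidney for *Trpv6* and shFOS replicate 1 lies within the shNT range of the markers (2485 CPM).

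*Klb* (ENSMUSG00000029195.10) was at 3 to 44 reads per kidney. Its levels were 0.404 to 1.32 CPM in shNT kidneys and 0.578, 2.93, 0.715 and 0.230 CPM in shFOS kidneys 1 to 4. The highest value was that of shFOS replicate 2, the kidney with adrenal and adipocyte markers, and the groups overlapped. On the log2 scale, the change was 0.29 (SE 0.70, edgeR adjusted p = 0.801), and it was -0.83 without shFOS replicate 2. The longest run of bases that transcripts of *Kl* and *Klb* share is 14.

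Of the receptors, *Vdr* (ENSMUSG00000022479.15), the nuclear receptor of active vitamin D, was the most even member in shNT kidneys. It was 332, 329, 315 and 314 CPM in shNT kidneys 1 to 4 and 313, 357, 325 and 350 CPM in shFOS kidneys 1 to 4. The groups overlapped, and the SD was 2.83% of the mean in shNT and 6.10% in shFOS kidneys. In edgeR's fit, the log2 fold change was 0.06 (SE 0.08, edgeR adjusted p = 0.656).

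*Pth1r* (ENSMUSG00000032492.14), the receptor through which parathyroid hormone acts on proximal and distal tubules, was 502, 497, 523 and 267 CPM in shNT kidneys 1 to 4 and 532, 478, 428 and 615 CPM in shFOS kidneys 1 to 4. Replicate 4 of shNT was far below the rest, and the groups overlapped. Its fold change on the log2 scale was 0.20 (SE 0.21, edgeR adjusted p = 0.551), 0.02 without that replicate and 0.45 with a correction for GC content (adjusted p = 0.214). In GENCODE M21, exons of *Pth1r* overlap those of *Myl3* by 95 bases on the opposite strand, and counting ignored strand. What became of reads in that stretch depends on the annotation the authors counted with, and was not tested.

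*Casr* (ENSMUSG00000051980.13), which senses extracellular calcium in the thick ascending limb, was 125, 113, 119 and 160 CPM in shNT kidneys 1 to 4 and 133, 133, 140 and 144 CPM in shFOS kidneys 1 to 4. The groups overlapped through shNT replicate 4 alone. The log2 fold change was 0.09 (SE 0.11, edgeR adjusted p = 0.610). Without that replicate it was 0.21 (adjusted p = 0.119).

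The calcium entry channels differed in their values. *Trpv5* (ENSMUSG00000036899.10), the main apical channel of the distal nephron, was 26.8, 15.4, 17.9 and 20.1 CPM in shNT kidneys 1 to 4 and 17.2 to 19.1 CPM in shFOS kidneys. The shFOS values lay within the shNT range, at a log2 fold change of -0.14 (SE 0.16, edgeR adjusted p = 0.569). Without shNT replicate 1, the highest, the estimate was 0.03.

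*Trpv6* (ENSMUSG00000029868.13), a channel best known from calcium uptake in the gut, lies beside *Trpv5* on the minus strand of chromosome 6, from 41620624 to 41636405. The 250 bases before its start are shown because it had the lowest estimate of the members. Capitals mark the DR3 half-site, AGGTCA or TGACCT on the other strand, 191 and 165 bases before the start. The sequence is from RefSeq (GRCm38.p6), chr6:41636406-41636655, minus strand, written 5′ to 3′.
Trpv6: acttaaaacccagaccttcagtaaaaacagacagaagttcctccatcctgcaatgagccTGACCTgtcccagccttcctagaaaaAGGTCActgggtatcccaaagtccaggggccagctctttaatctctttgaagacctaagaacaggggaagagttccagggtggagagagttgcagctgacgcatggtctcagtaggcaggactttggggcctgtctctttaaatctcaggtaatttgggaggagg

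Of 32841 such windows of 300 bases, 16.3% held the half-site, 5.20% the AP-1 site, 1.79% the CRE site, 0.00609% the whole DR3 and 13.6% TATAAA. A RefSeq window was found for 9 members, all but *Calb1*. None of the 9 held the AP-1 site, the CRE site or the whole DR3, while *Trpv6* and *S100g* held the half-site and *Trpv5* and *S100g* TATAAA. The TATAAA of *Trpv5* began 43 bases before the start, and that of *S100g* began at base 1 of the transcript, not before it. A CRE site cannot be counted as an AP-1 site here, because the letters differ, whereas each whole DR3 also counts among the half-sites. A match is a string of letters and no evidence of binding.

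*Trpv6* was 5.92, 5.59, 4.1 and 6.9 CPM in shNT kidneys 1 to 4 and 3.34, 2.26, 2.86 and 2.0 CPM in shFOS kidneys 1 to 4. Every shFOS kidney was below every shNT kidney, on 63 to 107 reads in shNT and 26 to 52 reads in shFOS kidneys. The means were 5.63 ± 1.16 and 2.62 ± 0.604 CPM (SD, n = 4), a ratio of 0.465. Its log2 fold change was -1.10 (SE 0.24, edgeR adjusted p = 0.0661), with an exact permutation p of 0.0286. Over 19 alternatives it ran from -1.28 to -0.92, lower in shFOS in all 19, and was called by DESeq2 (adjusted p = 0.00272) and without shFOS replicate 1 (adjusted p = 0.00830). The longest run of bases shared with *Trpv5* is 47.

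The summed markers of the distal convoluted tubule, mostly *Slc12a3* and *Wnk1*, were lower in 3 of 4 shFOS kidneys than in any shNT kidney. Of these 6 genes, 1 was below every shNT kidney in all shFOS kidneys, as were 8.04% of all kidney genes. Per 1000 CPM of their sum, *Trpv6* was 2.26 ± 0.685 (SD, n = 4) in shNT, from 1.87 to 3.29, and 1.34 ± 0.175 in shFOS kidneys, from 1.13 to 1.56, still with no overlap. Per 1000 CPM of the connecting tubule markers that are no members, *Slc8a1* and *Klk1*, it was 1.29 to 4.67 in shNT and 0.569 to 1.26 in shFOS kidneys. The 4.67 was shNT replicate 4, and the other shNT kidneys were at 1.29 to 1.45, close to the highest shFOS value. *Klk1* made up most of this sum, at 1290 CPM in shNT replicate 4 and 2928 to 3782 CPM in the other shNT kidneys. These ratios were chosen after the values were seen. The summed podocyte markers were 281 to 414 CPM in shNT and 357, 675, 742 and 649 CPM in shFOS kidneys 1 to 4. The 5 endothelial markers summed to 265 to 341 CPM in shNT and 371 to 442 CPM in shFOS kidneys, with no overlap. Of the 5, 3 were above every shNT kidney in all shFOS kidneys, as were 9.16% of all kidney genes. The part of these cells in the members' values was not tested.

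The calbindins came next. *Calb1* (ENSMUSG00000028222.2) was 667, 488, 475 and 581 CPM in shNT kidneys 1 to 4 and 522, 500, 432 and 587 CPM in shFOS kidneys 1 to 4. The groups overlapped, with a log2 fold change of -0.12 (SE 0.14, edgeR adjusted p = 0.607), -0.30 with the GC correction and -0.012 without shNT replicate 1. *S100g* (ENSMUSG00000040808.4) was 430, 388, 487 and 845 CPM in shNT kidneys 1 to 4 and 359, 276, 528 and 372 CPM in shFOS kidneys 1 to 4. Replicate 4 of shNT was the highest, and the groups overlapped. On the log2 scale, the change was -0.49 (SE 0.28, edgeR adjusted p = 0.257), -0.18 without that replicate and -0.05 without it and shFOS replicate 2. The longest run shared by the transcripts of *Calb1* and *S100g* is 11 bases.

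*Atp2b1* (ENSMUSG00000019943.10), the pump that moves calcium out of the cell, was 111, 93.3, 99.6 and 78.6 CPM in shNT kidneys 1 to 4 and 103, 129, 132 and 138 CPM in shFOS kidneys 1 to 4. Only shFOS replicate 1 lay within the shNT range. The means were 95.6 ± 13.5 and 126 ± 15.7 CPM (SD, n = 4), at a log2 fold change of 0.39 (SE 0.13, edgeR adjusted p = 0.0847) and an exact permutation p of 0.0571. DESeq2 called it (adjusted p = 0.0397), as did edgeR without shFOS replicate 1 (adjusted p = 0.0218). With a correction for GC content the estimate was 0.23 (adjusted p = 0.185). *Atp2b1* has a GC content of 42.6% over its longest transcript and shares runs of up to 35 bases with the other pump genes.

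**Figure D4:**
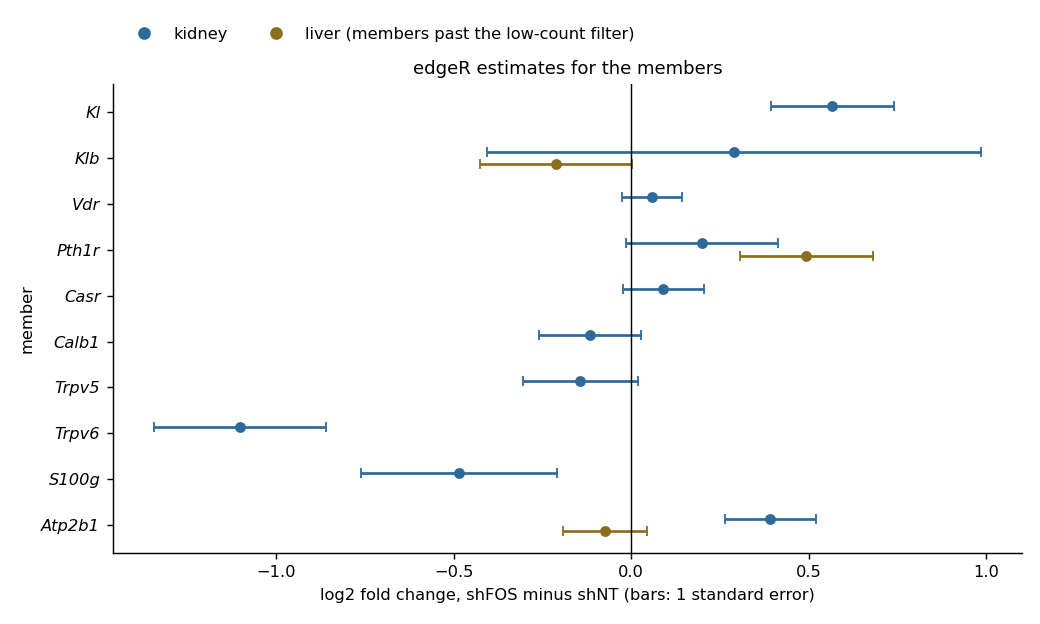
Log2 fold change of each member, shFOS minus shNT, from edgeR's fit of each tissue (points) with 1 standard error (bars), kidney in blue and, for the 3 members past the low-count filter there, liver in brown. *Kl* (0.57) and *Trpv6* (-1.10) lie furthest from 0 in the kidney relative to their errors, and *Pth1r* (0.49) in the liver.

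Among themselves, the members varied in different directions in the kidney. Over the 8 kidney libraries, 3 of 45 pairs had a Pearson r above 0.7 and 3 an r below -0.7. The highest was *Kl* with *Atp2b1* (r = 0.927, and 0.826 within groups), followed by *Vdr* with *Atp2b1* (0.715, within groups 0.651) and *Kl* with *Pth1r* (0.709, within groups 0.746). The lowest were *Trpv6* with *Atp2b1* (-0.863, within groups -0.646), *Trpv6* with *Kl* (-0.820, within groups -0.435) and *Pth1r* with *S100g* (-0.797, within groups -0.767). *Trpv5* and *Trpv6*, neighbours on the chromosome, were not among these pairs. The 8 points of each pair share their libraries and scaling, and a single library, shNT replicate 4, was lowest for *Kl*, *Pth1r* and *Atp2b1* and highest for *S100g*, *Trpv6* and *Casr*.

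The genes whose log2 CPM followed *Kl* most closely over the 8 kidney libraries, among 10397 with a mean of at least 10 CPM, were *Tmem260* (r = 0.991), *Cpne4* (0.989), *G6pc* (0.989), *Ces2g* (0.984) and *Uprt* (0.984). *G6pc* makes glucose-6-phosphatase, the last step of glucose production. The 5 genes were picked as the highest of many r values over 8 points. Within groups their values were 0.958 to 0.982, over the same libraries that picked them, which gives no separate support.

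**Figure D5:**
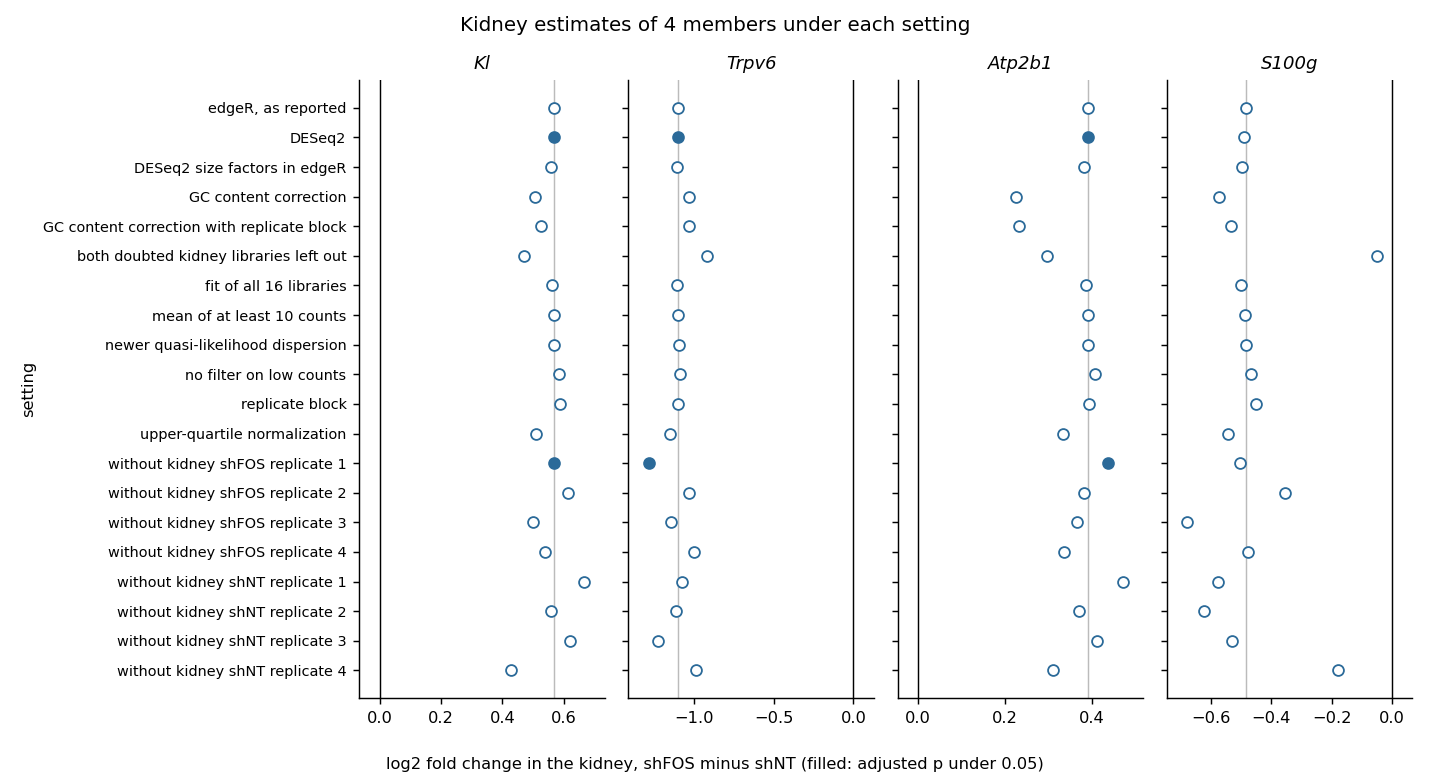
Log2 fold change of *Kl*, *Trpv6*, *Atp2b1* and *S100g* in the kidney (horizontal axes, shFOS minus shNT, each panel on its own range) under edgeR as reported and 19 alternative settings (rows); filled points have an adjusted p under 0.05. All points of a gene lie on the same side of 0, and the filled ones are DESeq2 and the fit without kidney shFOS replicate 1, for the first 3 genes.

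In the liver, 0 of the 3 members tested reached an adjusted p under 0.05 in edgeR's test or DESeq2, against 0.0% and 0.217% of all genes. *Pth1r* had an unadjusted p under 0.05, as did 6.74% of all genes. It was 8.91, 9.63, 11.8 and 7.67 CPM in shNT livers 1 to 4 and 13.8, 9.78, 16.3 and 13.6 CPM in shFOS livers 1 to 4. Of the shFOS livers, replicate 2 alone lay within the shNT range. In edgeR's fit, the log2 fold change was 0.49 (SE 0.19, edgeR adjusted p = 0.715), and the exact permutation p was 0.0571. The groups overlapped for each of the 3 tested members, while 4.31% of all genes did not overlap.

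*Klb*, the member with the highest mean per kilobase in shNT livers, was 18.9, 30.3, 27.0 and 20.4 CPM in shNT livers 1 to 4. In shFOS livers 1 to 4 it was 23.3, 24.6, 13.6 and 21.8 CPM. The ranges overlapped, with shFOS replicate 3 the lowest. Its fold change on the log2 scale was -0.21 (SE 0.21, edgeR adjusted p = 0.818). The 5 genes most like *Klb* over the 8 livers, of 7919, were *Znfx1* (r = 0.942), *Plbd1* (0.937), *Gna12* (0.936), *Klf11* (0.936) and *Txnip* (0.932). *Atp2b1* was 36.4 to 49.6 CPM in shNT and 38.3 to 47.1 CPM in shFOS livers, at a log2 fold change of -0.07 (SE 0.12, edgeR adjusted p = 0.894).

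The difference of the treatment's effect between liver and kidney was tested in 1 fit of all 16 libraries. The 7 members that did not pass the low-count filter in the liver entered this fit through their kidney counts, so it says nothing of an effect on them in the liver. Of the 3 members tested in both tissues, edgeR called 0, against 0.0% of 15421 genes, and DESeq2 called 0, against 2.93% of 11734 genes. At an unadjusted p under 0.05 there was 1, *Atp2b1*, against 16.1% of genes. For *Atp2b1* the effect was lower in liver than in kidney by 0.45 on the log2 scale (a difference of -0.45, SE 0.17, edgeR adjusted p = 0.231). For *Pth1r* the difference was 0.31 (SE 0.29) and for *Klb* -0.50 (SE 0.68).

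Genes around the members were counted in 5 lists, none of which had an edgeR call at an adjusted p under 0.05 in either tissue. A single value given for a gene of these lists is its log2 fold change, shFOS minus shNT, with edgeR's adjusted p. Of the list on vitamin D metabolism and uptake, 14 of 15 genes were tested in the kidney, and 3 had an unadjusted p under 0.05, all with higher estimates, 21.4% against 31.9% of all kidney genes. DESeq2 called 3. *Lrp2*, the gene of megalin, which takes up filtered vitamin D with its carrier in the proximal tubule, was 1148 to 2548 CPM in shNT and 2702 to 3914 CPM in shFOS kidneys. It did not overlap (log2 fold change 0.78, SE 0.24, edgeR adjusted p = 0.0781, 0.0130 in DESeq2), and it is one of the 8 proximal markers. *Pdia3*, a protein-folding enzyme, had 0.41 (edgeR adjusted p = 0.0812).

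The enzymes that make and destroy active vitamin D varied between single kidneys. *Cyp27b1*, which activates vitamin D, was 3.29 to 56.1 CPM in shNT kidneys, with the highest value in replicate 4, and 2.79 to 16.7 CPM in shFOS kidneys. Its log2 fold change was -1.33 (SE 0.91, edgeR adjusted p = 0.341), and 0.25 without shNT replicate 4. *Cyp24a1*, which degrades it, was 53.7 to 170 CPM in shNT and 55.1 to 211 CPM in shFOS kidneys (log2 fold change -0.20, edgeR adjusted p = 0.80). The shNT kidney with the most *Cyp27b1*, replicate 4, had the least *Cyp24a1*, which is a single library. Among shFOS kidneys, replicate 3 had the most *Cyp27b1* and replicate 1 the least *Cyp24a1*.

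In the list of Klotho partners and endocrine FGF signalling, 11 of 14 genes were tested in the kidney. An unadjusted p under 0.05 went with higher estimates in 5 genes and with lower ones in 3, 72.7% of those tested against 31.9% of all genes. DESeq2 called 2 higher and 1 lower, against 16.9% of all kidney genes in either direction. *Adam10*, a protease that sheds Klotho from the membrane, did not overlap in either tissue: its log2 fold change was 0.36 in the kidney (adjusted p = 0.0661) and -0.40 in the liver (adjusted p = 0.714, edgeR's test). The difference between tissues was -0.74 (SE 0.14, edgeR adjusted p = 0.18 for the interaction). *Galnt3*, which glycosylates FGF23, had 0.55 in the kidney (adjusted p = 0.0661). Of the FGF receptors, *Fgfr1*, the receptor that Klotho is best known to join, had -0.26 (adjusted p = 0.0919) and *Fgfr4*, the partner of β-Klotho in the liver, -0.34 (adjusted p = 0.0732) in the kidney by edgeR, the latter with no overlap at 47.2 to 51.7 CPM in shNT and 35.0 to 45.6 CPM in shFOS kidneys. With the GC correction the kidney estimates were 0.19 for *Adam10*, -0.12 for *Fgfr1* and -0.12 for *Fgfr4* (edgeR adjusted p = 0.163, 0.292 and 0.377).

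Of the phosphate transporters and their regulators, 13 of 15 were tested in the kidney. At an unadjusted p under 0.05, 2 were higher and 1 lower, 23.1% against 31.9% of all genes. DESeq2 called as many of the list, against 16.9% of all kidney genes. The median log2 fold change was 0.27, against 0.00 over all genes. *Slc34a1*, the main sodium-phosphate transporter of the proximal tubule, was 2958 ± 865 CPM (SD, n = 4) in shNT and 4038 ± 595 CPM in shFOS kidneys (log2 fold change 0.45, edgeR adjusted p = 0.224), and it is one of the 8 proximal markers. *Slc34a3* had 0.98 (adjusted p = 0.280). Without shNT replicate 4 the estimates were 0.26 for *Slc34a1* and 0.61 for *Slc34a3*. The phosphate exporter *Xpr1* had 0.60 and the ubiquitous transporter *Slc20a1* -0.67 (both adjusted p = 0.0661). The kinase *Sgk1* was 112 to 209 CPM in shNT and 220 to 414 CPM in shFOS kidneys, with no overlap (log2 fold change 0.94, edgeR adjusted p = 0.0661).

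Of the genes of parathyroid hormone and calcium receptor signalling, 13 of 17 were tested in the kidney. With an unadjusted p under 0.05, 2 were higher and 1 lower, 23.1% against 31.9% of all genes. DESeq2 called as many, against 16.9% of all kidney genes. The shNT and shFOS kidneys overlapped for each of these 13, while 17.2% of all kidney genes did not overlap. The phospholipase *Plcb1* had 0.88 (adjusted p = 0.0730) and *Arrb2*, an arrestin that turns receptors off, -0.76 (adjusted p = 0.0850, edgeR's test). Of other calcium and magnesium transport genes, 28 of 31 were tested. With an unadjusted p under 0.05, 6 were higher and 3 lower, 32.1% against 31.9% of all genes. DESeq2 called 3 higher and 2 lower, against 16.9% of all kidney genes. *Itpr1*, a calcium release channel, had 0.54 with no overlap and *Wnk4*, a kinase of the distal convoluted tubule, -0.81 (both edgeR adjusted p = 0.0661). The exit routes beside *Atp2b1* gave no call: the exchanger *Slc8a1* was 260 ± 60.3 CPM (SD, n = 4) in shNT and 261 ± 62.6 CPM in shFOS kidneys, and *Atp2b4* had -0.23 (edgeR adjusted p = 0.284), -0.097 without shNT replicate 1.

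In the liver an unadjusted p under 0.05 went with 0 of 11 genes for vitamin D, 2 of 12 (16.7%) for Klotho partners, 1 of 9 (11.1%) for phosphate, 0 of 13 for parathyroid hormone signalling and 5 of 23 (21.7%) for other transport, against 6.74% of all liver genes. DESeq2 called none of them, against 0.217% of all liver genes. *Atp2b4*, the pump related to *Atp2b1*, was 3.33 to 5.57 CPM in shNT and 5.80 to 8.22 CPM in shFOS livers, with no overlap (log2 fold change 0.52, edgeR adjusted p = 0.717). *Cldn2*, which forms a paracellular pore for cations, had -0.67 and the magnesium transporter *Slc41a3* -1.85 (both adjusted p = 0.714).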

How the data were processed

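Reads had been trimmed with Trimmomatic 0.39, aligned to mm10 with HISAT2 2.2.1 and counted per gene with HTSeq 0.12.4 without regard to strand, per the labels and the study's methods. The deposited tables hold the authors' raw counts for 24984 gene symbols and 5 summary lines, which were left out (no feature 13.4% to 26.7%, ambiguous 1.84% to 2.64%). GENCODE M21 held 98.2% of the symbols by name and supplied identifiers, positions, exon lengths and GC content. Libraries of a group differed by more than counting noise (chi-square per degree of freedom at least 7.17).

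Kidney and liver were fitted separately with edgeR 4.0.16 under R 4.3.3 (filterByExpr on the groups, TMM, robust quasi-likelihood test, Benjamini-Hochberg over all genes, call at an adjusted p under 0.05). The interaction was fitted over 16 libraries and the tissue contrast over the 8 shNT libraries. CPM are TMM-normalized within a tissue, or over both where a shared scale is stated. For single members, an exact two-sided permutation test was used. Alternatives were DESeq2 1.42.0, other scalings, filters and dispersions, a GC correction (lowess, span 0.3), the replicate block, a fit of all libraries and each library left out. The fits were tested on simulated data.

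The members and lists were chosen with earlier results of these data known. Genes named from a list are the top 2 by p of each tissue, with *Cyp27b1*, *Cyp24a1*, *Slc34a1*, *Slc34a3*, *Fgfr1*, *Fgfr4*, *Slc8a1*, *Atp2b4* and *Fos*, and for *Kl* in kidney and *Klb* in liver the 5 most correlated genes. Replicate numbers were checked as pairs by the correlation of deviations from group means. Kidney and liver of the same number correlated at 0.123 to 0.401 in shNT and at 0.041 to 0.156 in shFOS mice. The labels do not tie them to a mouse. The tissue contrast reported above is unpaired, and a fit with the shNT numbers as pairs changed no member's call.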

Additional observations from a re-analysis of the deposited data

Results flagged for a closer look

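Each member's levels were examined in each group of 4 libraries that held a read of it, 36 groups in all, and in 3 of them a library stood far from the rest. *Pth1r* in kidney shNT replicate 4 was 266.8 CPM, against 496.7 to 523.3 CPM in the other shNT kidneys. The gap to the nearest of the others was 0.896 of the group's whole range, above Dixon's 95% critical value for 4 samples. Chance flags about 1 in 20 groups, here 1.8. The other two rest on 0 to 2 reads per library: *Kl* was 0.1041 CPM in liver shNT replicate 3 and 0.0 CPM in the other shNT livers, and 0.1174 CPM in liver shFOS replicate 3 against 0.05556 to 0.05982 CPM in the other shFOS livers. These lie under the limit that a count of 0 allows. In kidney shNT replicate 4 the 8 proximal tubule markers summed to 5078 CPM, against 8662 to 10350 CPM in the other shNT kidneys, and the part of this in the *Pth1r* value was not tested.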

How the results depend on the processing

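In the kidney, the count of called genes was 0 in edgeR, 2577 with DESeq2, 994 in the fit of all 16 libraries and 3 with no filter on low counts, and 0 to 4126 with a library left out. The count of called members was 0, and 3 with DESeq2 (*Kl*, *Trpv6* and *Atp2b1*) and without kidney shFOS replicate 1, the fit that also gave 4126 genes (27.5% of those tested), and 0 to 3 over the fits with a library left out. DESeq2 called 28 genes in the liver and 344 for the difference between tissues, where leaving out a library gave 0 to 1246, the highest again without kidney shFOS replicate 1. The count of members with an exact p under 0.05 in the kidney was 2, and 0 to 3 with a library left out. Without shFOS replicate 3 or 4 neither *Kl* nor *Trpv6* reached it (p = 0.0571, exact permutation test), although the groups still did not overlap and the log2 fold changes were 0.50 and 0.54 for *Kl* and -1.144 and -0.999 for *Trpv6*.

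Replicate numbers did not pair shNT with shFOS: deviations of the same number correlated at -0.173 to 0.116 in the kidney and at -0.261 to 0.039 in the liver. With the replicate block, *Klb* in the kidney was -0.14, with the block and the GC correction -0.17, and the adjusted p was 0.151 for *Kl* and 0.147 for *Trpv6* (edgeR's test). The block gave 0 calls in each tissue and changed no member's call between tissues.

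Some estimates with no call reversed, all on the log2 scale unless stated. In the kidney, *Slc8a1* was -0.15 with the GC correction, -0.18 with that and the block, -0.045 with upper-quartile scaling and -0.10 without the pair of doubted kidneys, shNT replicate 4 and shFOS replicate 2, a setting added after the data were seen. *Rxrb* was 0.20 with the GC correction, with or without the block, and *Cyp27b1* 0.52 without the doubted kidneys. With total counts only, shFOS minus shNT was -8.77 CPM for *Vdr* and -0.661 CPM for *Casr*. With a library left out, kidney values ran from -0.83 to 0.61 for *Klb*, -0.26 to 0.028 for *Trpv5*, -0.80 to 0.022 for *Cyp24a1*, -2.11 to 0.25 for *Cyp27b1* and -0.19 to 0.15 for *Slc8a1*. Liver values ran from -0.19 to 0.69 for *Fgfr1*, -0.22 to 0.10 for *Itpr1* and -0.082 to 0.27 for *Plcb1*. In CPM, *Klb* ran from -0.408 to 0.491 and *Trpv5* from -3.44 to 0.339, and the difference between tissues from -0.86 to 0.59 for *Klb* and -0.036 to 0.24 for *Trpv5*. DESeq2 gave no adjusted p for *Lrp2* in the liver and for *Trpv6* in the difference between tissues. The causes were not tested.

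Depth limits 7 members in the liver, where *Kl*, *Casr*, *Calb1*, *Trpv5*, *Trpv6*, *S100g* and *Vdr* did not pass the low-count filter and a change by treatment was not detectable, and *Klb* in the kidney at 3 to 44 reads.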
